A study of Homo sapiens with 4 samples.

Results

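The 9 genes described here encode the proteins that make, store, take back and break down noradrenaline, together with the main proteins of the granules that hold it: TH, DBH, DDC, SLC18A1, SLC18A2, SLC6A2, MAOA, CHGA and CHGB. They were chosen by name for their function in sympathetic neurons and adrenal chromaffin cells, with earlier results of these data known. All 9 were found among the 57820 genes of the count files. The cells were SY5Y, an established human neuroblastoma line with wild type MYCN, harvested 12 h after treatment. Of the 4 libraries, 2 came from cells given the solvent DMSO and 2 from cells given SGSS05-NS. The labels and a figure legend of the study give the dose as 3 μM, and the study's methods give a lower one. Which was used was not settled here. The compound carries the name of the labels here, whereas the study writes SGSS05-NS3 for its covalent inhibitor of SETD8, a methyltransferase of histone H4. All 4 libraries came from 1 cell line, and the methods call the replicates independent.

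In a noradrenergic cell, tyrosine hydroxylase (TH) turns tyrosine into L-DOPA, aromatic L-amino acid decarboxylase (DDC) turns L-DOPA into dopamine, and dopamine beta-hydroxylase (DBH) turns dopamine into noradrenaline inside the granule. The vesicular monoamine transporters (SLC18A1 and SLC18A2) load the granule, the noradrenaline transporter (SLC6A2) brings released transmitter back, and monoamine oxidase A (MAOA) breaks it down. Chromogranins A and B (CHGA and CHGB) are acidic proteins packed with the transmitter in dense-core granules. Neuroblastoma arises from the same sympathoadrenal lineage, and uptake by SLC6A2 is the basis of imaging with radioactive MIBG.

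Between 21463105 and 25350204 fragments per library were counted on genes. The share of fragments outside exons of the counted strand was 12.4% and 12.3% with DMSO and 16.1% and 15.3% with SGSS05-NS. Its part in the results below was not tested. The replicates differed by more than the sampling noise, with chi-square values per degree of freedom at 8.76 (DMSO) and 11.8 (SGSS05-NS). KMT5A, the gene of SETD8, rose from 55.7 ± 1.53 CPM (counts per 1e6 counted fragments after TMM scaling, SD, n = 2) to 82.9 ± 0.0952 CPM, with a log2 fold change of SGSS05-NS against DMSO of 0.57 (SE, the standard error, 0.091, edgeR adjusted p = 0.00037). Without DMSO replicate 1 its adjusted p was 0.0017. Because the compound acts on the protein, this transcript is no check of the labels. Among markers of other cells, SOX10 and CDH19 of Schwann cells, DCN of fibroblasts and CD3E of T cells had 0 fragments in all 4 libraries. The summed level of the 6 Schwann cell markers was between 1.57 and 2.57 CPM over the 4 libraries. That of the 6 fibroblast markers was 168 and 163 CPM with DMSO and 86.6 and 71.6 CPM with SGSS05-NS. Nearly all of it was PDGFRA, the only 1 of the 5 tested that was called (lower), and its part in the results was not tested. The summed level of the 6 immune, endothelial and epithelial markers found in the files was 1.51 and 1.71 CPM with DMSO and 2.61 and 3.70 CPM with SGSS05-NS, with 1 tested and none called. That of the 10 markers of mesenchymal-type neuroblastoma was between 174 and 188 CPM in all 4 libraries, with PRRX1 at 0. Of the 7 tested in that list, 2 were called higher and 0 lower, with 4 positive and 3 negative log2 fold changes. Of all genes tested, 6.37% were called higher and 8.14% lower. FOSL1 had 1 and 0 fragments with DMSO and 152 and 106 with SGSS05-NS, so it passed the filter on low counts only through the treated libraries. FOSL2 was at 19.4 and 28.4 CPM with DMSO and at 48.9 and 47.4 CPM with SGSS05-NS.

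The 9 genes did not stand at comparable levels in the DMSO cells. For levels between genes, CPM was divided by the length of the merged exons, which gives CPM per kb. CHGA was at 227 ± 18.5 CPM per kb (SD, n = 2) and DBH at 213 ± 16.5 CPM per kb, and their replicates overlapped. DDC followed with 43.9 ± 0.218, CHGB with 24.6 ± 0.695, SLC6A2 with 12.4 ± 0.0221 and SLC18A1 with 4.37 ± 0.616 CPM per kb. MAOA stood at 1.35 ± 0.0503 and SLC18A2 at 0.253 ± 0.0976 CPM per kb, while TH stood at 0.0260 ± 0.00131 CPM per kb. Apart from CHGA and DBH, no neighbours in this order overlapped between the DMSO libraries. Of the 16042 tested genes with a known length, 99.2% had a lower level than CHGA and 99.2% a lower level than DBH. For MAOA this share was 31.3%, and for SLC18A2 10.2%. The order was the same when CPM was divided by the length of the canonical transcript, a choice added after the data were seen. CHGA then stood at 346 ± 28.1 and DBH at 213 ± 16.5 CPM per kb, so their overlap depended on the length used. MAOA then stood at 4.48 CPM per kb, because its merged exons are long (13010 bases).

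**Figure D1:**
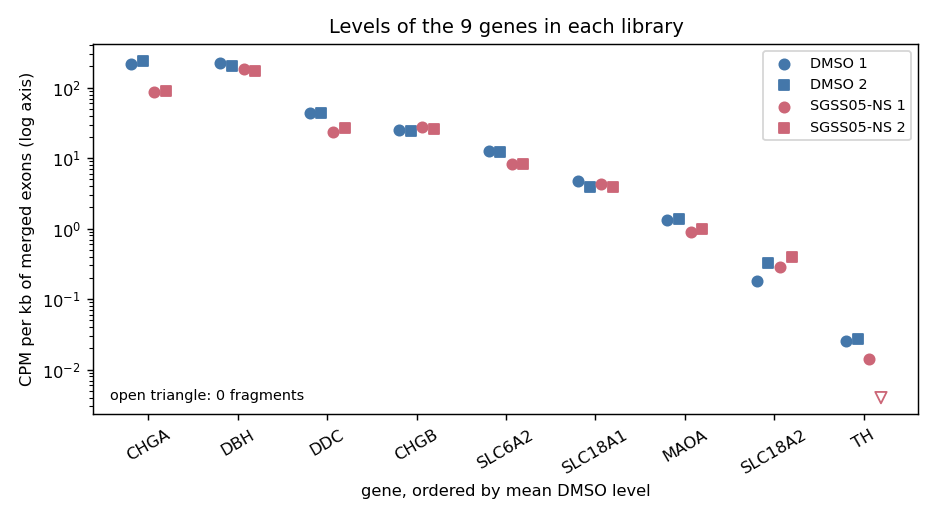
Level of each of the 9 genes in the 4 libraries, as CPM per kb of merged exons on a log axis, ordered from the highest to the lowest mean with DMSO, with circles for replicate 1 and squares for replicate 2. The levels run from over 200 CPM per kb for CHGA and DBH down to TH, which had 2, 2, 1 and 0 fragments, and the open triangle marks the library with 0.

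TH, which encodes the rate-limiting enzyme of catecholamine synthesis (ENSG00000180176.10, chromosome 11 of GRCh37 from 2185159 to 2193045, minus strand), was at the limit of detection. Its counts were 2 and 2 fragments with DMSO and 1 and 0 with SGSS05-NS. A count of 3 fragments, the limit that a count of 0 allows, corresponded to between 0.120 and 0.135 CPM per library, so all 4 libraries lay at or under it and no fold change is given. The strand did not matter for this gene, since the forward-strand column held 0 fragments in every library. A change of TH was thus not detectable at this depth, in cells whose DBH level was among the highest of all genes.

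Among the 8 genes with enough counts for a test, CHGA, DDC and SLC6A2 fell with SGSS05-NS, none rose, and 5 were not called. The test was edgeR's quasi-likelihood test over 16468 genes, called at an adjusted p-value under 0.001, the threshold of the study. At this threshold 8.14% of all genes tested were lower and 6.37% were higher. At an unadjusted p under 0.05, 0 of the 8 were higher and 5 were lower. Of all genes tested, at least 22.6% were higher and 23.7% lower at that cut, the shares at an adjusted p-value under 0.05. DESeq2 and limma voom likewise called 0 higher and 3 lower at the threshold of 0.001. In both directions together, 14.5% of all genes were called. At an adjusted p-value under 0.05 DBH and MAOA were lower as well, which makes 5 of the 8, and none was higher. At that threshold 46.3% of all genes tested were called, 23.7% lower and 22.6% higher. The median log2 fold change of the 8 was -0.39, beside 0.012 over all genes tested. The libraries of the 2 conditions did not overlap for 5 of these 8 that were lower and for 1 that was higher (CHGB), where 36.9% of all genes tested were lower and 37.8% higher without overlap (74.7% in all). The summed level of the 9 genes was 1649 and 1657 CPM with DMSO and 1056 and 1035 CPM with SGSS05-NS. Most of this sum was CHGA and DBH, so it says little about the other genes. CHGA had a mean of 688 CPM with DMSO and 266 CPM with SGSS05-NS, and DBH one of 585 and 487 CPM. In a bulk sample, fewer cells that make a transcript and less transcript per cell cannot be told apart.

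**Figure D2:**
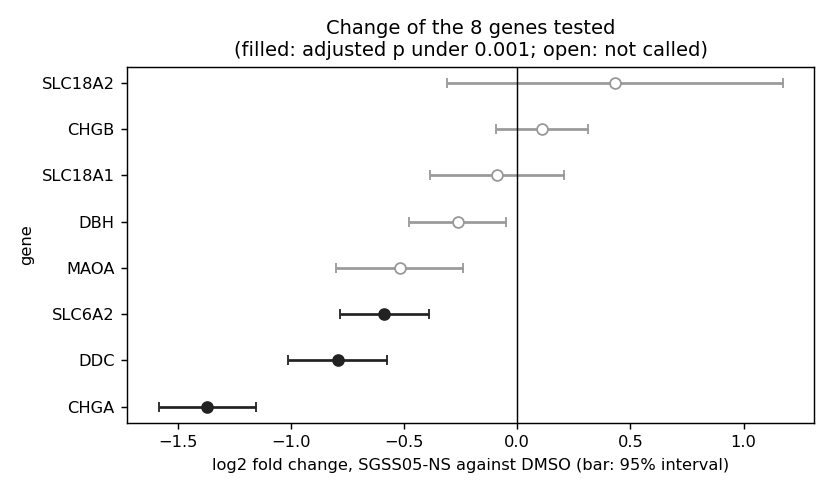
Log2 fold change of SGSS05-NS against DMSO for the 8 genes tested, with the 95% interval of edgeR's fit as bars, where filled points had an adjusted p-value under 0.001. CHGA (-1.37), DDC (-0.79) and SLC6A2 (-0.59) lie to the left of 0 with filled points, and SLC18A2 has the widest interval, from -0.31 to 1.18.

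Of the enzymes of synthesis, DDC fell and DBH was not called. DDC (ENSG00000132437.13, chromosome 7 from 50526134 to 50633102, minus strand), which makes dopamine, was at 136 and 135 CPM with DMSO and at 72.3 and 83.8 CPM with SGSS05-NS. Both treated libraries lay far below both controls. The log2 fold change of DDC was -0.79 (SE 0.10, edgeR adjusted p = 6.9e-05), which left 57.7% of the control level. DBH (chromosome 9 from 136501485 to 136524451, plus strand), which makes noradrenaline, was at 617 and 552 CPM with DMSO and at 504 and 470 CPM with SGSS05-NS. Both treated libraries lay below both controls, but the nearest libraries of the conditions were closer than the DMSO replicates were to each other. The log2 fold change of DBH was -0.26 (SE 0.098, edgeR adjusted p = 0.044), with a 95% interval of the fold from 0.718 to 0.966, so it was not called. Over the alternative analyses this adjusted p ranged from 0.0056 to 0.31. The ratio of DBH to DDC within a library does not depend on the scaling of libraries. Taken per kb of merged exons, it was 5.10 and 4.60 with DMSO and 7.83 and 6.30 with SGSS05-NS. The shift of 0.54 on the log2 scale was larger than the spread between replicates, with SDs of 0.10 and 0.22. The exact two-sided permutation test gave p = 0.33, the smallest value that 2 libraries against 2 allow.

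The vesicular transporters gave no call. SLC18A1, the transporter typical of chromaffin cells (chromosome 8 from 20002366 to 20040717, minus strand), was at 18.8 and 15.4 CPM with DMSO and at 16.7 and 15.4 CPM with SGSS05-NS. The conditions overlapped, and the interval of its fold ran from 0.766 to 1.15. SLC18A2, the transporter typical of monoamine neurons (chromosome 10 from 119000604 to 119038941, plus strand), had 19 and 31 fragments with DMSO and 26 and 38 with SGSS05-NS, or 1.04 ± 0.403 and 1.39 ± 0.314 CPM (SD, n = 2). The libraries overlapped here too. The interval of its fold, from 0.805 to 2.26, was wide at this depth, and its log2 fold change moved from 0.065 without DMSO replicate 1 to 0.86 without DMSO replicate 2. Per kb of merged exons, SLC18A1 was 26.2 and 12.2 times as high as SLC18A2 in the DMSO libraries and 15.1 and 10.1 times as high in the SGSS05-NS libraries. The column for the opposite strand held 307, 382, 404 and 418 fragments at SLC18A2, where the gene PDZD8 on the other strand shares 2157 exonic bases with it. A count without regard to strand at this gene is therefore mostly a count of the other strand.

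SLC6A2 (chromosome 16 from 55689900 to 55741557, plus strand), the noradrenaline transporter, was at 100.2 and 99.9 CPM with DMSO and at 66.2 and 66.9 CPM with SGSS05-NS. The replicates of each condition agreed within 1 CPM, and the conditions were far apart. The log2 fold change of SLC6A2 was -0.59 (SE 0.090, edgeR adjusted p = 0.00028), or 66.5% of the control level. MAOA (chromosome X from 43514155 to 43606064, plus strand), the degrading enzyme, was at 17.1 and 18.1 CPM with DMSO and at 11.6 and 12.9 CPM with SGSS05-NS. These libraries did not overlap either, and the log2 fold change was -0.52 (SE 0.13, edgeR adjusted p = 0.0064), which missed the threshold. With edgeR's likelihood ratio test, which the study used, its adjusted p was 0.00096, and over all alternatives it ranged up to 0.023. The called genes were both long and short, with DDC spanning 107 kb, SLC6A2 51.7 kb and CHGA 12.1 kb of the genome.

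Of the chromogranins, CHGA fell and CHGB was not called. CHGA (ENSG00000100604.8, chromosome 14 from 93389495 to 93401630, plus strand) was at 648 and 727 CPM with DMSO and at 262 and 271 CPM with SGSS05-NS. It was the gene with the largest fall of the 8, with a log2 fold change of -1.37 (SE 0.099, edgeR adjusted p = 1.1e-06), or 38.7% of the control level, and 4.57% of all genes tested had a more negative value. CHGB (chromosome 20 from 5892156 to 5905999, plus strand) was at 112 and 107 CPM with DMSO and at 122 and 114 CPM with SGSS05-NS. Its treated libraries lay just above its controls. The log2 fold change of CHGB was 0.11 (SE 0.093, edgeR adjusted p = 0.36), and the interval of its fold ran from 0.938 to 1.24. The ratio of CHGB to CHGA, per kb of merged exons, was 0.117 and 0.100 with DMSO and 0.318 and 0.286 with SGSS05-NS. This shift of 1.48 on the log2 scale was many times the SDs between replicates of 0.16 and 0.11 (exact permutation p = 0.33, the smallest possible). With DMSO, CHGA and DBH had the highest levels of the 9 genes, and with SGSS05-NS DBH stood at 177 ± 8.62 CPM per kb (SD, n = 2) and CHGA at 88.0 ± 2.11. CHGB at 26.6 ± 1.33 and DDC at 25.3 ± 2.65 CPM per kb then overlapped. Per kb of the canonical transcript they were apart, with CHGB at 48.0 ± 2.39 and DDC at 38.8 ± 4.07 with SGSS05-NS.

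Of the other granin family genes, VGF and SCG2 rose, and SCG3 and SCG5 were not called. VGF, a secreted granule protein whose gene is known to respond to neurotrophins, was at 296 and 250 CPM with DMSO and at 843 and 599 CPM with SGSS05-NS. The treated libraries differed from each other but both were far above the controls, and the log2 fold change was 1.40 (SE 0.15, edgeR adjusted p = 1.7e-05). SCG2, which encodes secretogranin II, the precursor of secretoneurin, rose from 57.2 and 53.1 CPM to 109.7 and 90.2 CPM, by 0.86 on the log2 scale (SE 0.11, edgeR adjusted p = 7.8e-05). SCG3, at 125 and 166 CPM with DMSO and at 155 and 163 CPM with SGSS05-NS, overlapped between the conditions. So did SCG5, at 8.57 and 8.99 CPM and at 8.29 and 9.27 CPM. Over the 6 granin genes, the summed level per kb of merged exons was 415 and 435 CPM per kb with DMSO and 524 and 429 CPM per kb with SGSS05-NS, which overlapped. CHGA made up 51.6% and 55.3% of this sum with DMSO and 16.5% and 20.9% with SGSS05-NS. VGF made up 26.6% and 21.5% with DMSO and 60.1% and 52.1% with SGSS05-NS. The ratio of VGF to CHGA was higher with SGSS05-NS by 2.75 on the log2 scale, beside SDs between replicates of 0.29 and 0.38 (exact permutation p = 0.33, the smallest possible).

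The start regions of these genes are shown because some of them hold the same letters. The cAMP response element, the site of CREB and related factors, reads TGACGTCA, a palindrome that is the same on both strands. RefSeq promoters of GRCh38.p14, from 250 bases before to 50 bases after the start, were at hand for 5 of the 9 genes and for 12 of the 15 other granin and granule enzyme genes. None was at hand for TH, SLC18A1, SLC6A2 and CHGB of the 9, or for SCG2, PTPRN2 and CADPS2 of the 15. Among the 5 genes with promoters, TGACGTCA was in those of CHGA and SLC18A2 and not in those of DBH, DDC and MAOA. Among the 12, it was in those of VGF and in 1 of 2 of PCSK1, a prohormone convertase gene with between 0 and 3 fragments per library. Of all 35116 promoters of this kind, 1.85% held it. The capitals below mark TGACGTCA and, in VGF, TTTATA, which is TATAAA on the other strand. Of all promoters, 11.5% hold TATAAA on either strand. Only exact matches were marked, so the similar letters tatataag in CHGA stay in lower case. The sequences are on chr14:92922900-92923199 (plus strand) for CHGA, on chr7:101165520-101165819 (minus strand) for VGF and on chr10:117240864-117241163 (plus strand) for SLC18A2, each written in the direction of transcription.
CHGA: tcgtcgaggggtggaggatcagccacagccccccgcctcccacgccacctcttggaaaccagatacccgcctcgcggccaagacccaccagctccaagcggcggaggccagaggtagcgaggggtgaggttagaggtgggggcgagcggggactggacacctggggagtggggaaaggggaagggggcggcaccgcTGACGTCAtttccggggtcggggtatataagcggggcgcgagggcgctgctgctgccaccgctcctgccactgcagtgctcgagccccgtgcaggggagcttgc
VGF: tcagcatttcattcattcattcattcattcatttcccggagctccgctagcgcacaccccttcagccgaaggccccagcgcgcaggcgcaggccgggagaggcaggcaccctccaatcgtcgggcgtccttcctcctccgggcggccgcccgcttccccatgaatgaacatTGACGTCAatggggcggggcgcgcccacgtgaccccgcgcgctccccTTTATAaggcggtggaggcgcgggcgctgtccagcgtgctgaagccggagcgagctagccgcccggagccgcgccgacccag
SLC18A2: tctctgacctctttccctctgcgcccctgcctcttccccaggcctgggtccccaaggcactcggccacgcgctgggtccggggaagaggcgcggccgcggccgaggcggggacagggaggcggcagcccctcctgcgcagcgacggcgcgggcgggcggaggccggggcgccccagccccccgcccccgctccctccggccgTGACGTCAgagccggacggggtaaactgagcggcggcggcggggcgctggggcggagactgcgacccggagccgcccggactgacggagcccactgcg
The element starts 54 bases before the start in CHGA, 79 bases before it in VGF and 48 bases before it in SLC18A2. The gene of the upper sequence fell (log2 fold change -1.37), that of the middle one rose (1.40), and that of the lower one was not called (0.43). The letters are a description and no measurement of a factor bound to them.

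The genes around the pathway were counted from lists. Over all genes tested, 6.37% were called higher and 8.14% lower. TH needs tetrahydrobiopterin, and of 8 genes for this cofactor 7 were tested, of which 1 rose and 1 fell. SPR, which encodes sepiapterin reductase, the last enzyme of its synthesis, was at 9.37 and 8.86 CPM with DMSO and at 18.2 and 18.6 CPM with SGSS05-NS. The log2 fold change of SPR was 1.01 (SE 0.13, edgeR adjusted p = 8.0e-05). GCH1, which encodes GTP cyclohydrolase, the entry enzyme, was at 48.0 and 48.7 CPM with DMSO and at 34.2 and 26.1 CPM with SGSS05-NS, or -0.68 on the log2 scale (SE 0.13, edgeR adjusted p = 0.00097). That call was lost with scaling by library size only (adjusted p = 0.0039), with at least 10 counts in every library (0.0012) and without SGSS05-NS replicate 2 (0.0023). QDPR, which regenerates the cofactor, had a log2 fold change of -0.48 and was not called (edgeR adjusted p = 0.0051). The median of the 7 was -0.11. Thus the entry and the final enzyme of cofactor synthesis went in opposite directions in cells in which the TH transcript was barely present.

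Of 12 other genes of catecholamine metabolism 9 were tested and none was called by edgeR, its likelihood ratio test, DESeq2 or limma voom, with a median log2 fold change of -0.12. At an unadjusted p under 0.05, 2 were lower and 0 higher, a cut at which at least 23.7% of all genes tested were lower and 22.6% higher. CYB561, the granule cytochrome that hands electrons to ascorbate for DBH, had the smallest p-value, at 235 and 226 CPM with DMSO and 189 and 166 CPM with SGSS05-NS (log2 fold change -0.38, edgeR adjusted p = 0.0082). AKR7A2, an aldehyde reductase gene, had a log2 fold change of -0.30 (edgeR adjusted p = 0.066). MAOB, the other monoamine oxidase gene, was at 4.59 ± 1.31 CPM and 3.20 ± 0.642 CPM (SD, n = 2, log2 fold change -0.51, edgeR adjusted p = 0.10).

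Of 15 other granin and granule enzyme genes 11 were tested, of which 2 rose (VGF and SCG2) and 2 fell, with a median log2 fold change of 0.068, which turned to -0.012 without DMSO replicate 1 and was 0.017 without DMSO replicate 2. PAM, which amidates peptide hormones, was at 62.2 and 54.5 CPM with DMSO and at 37.1 and 31.8 CPM with SGSS05-NS, or -0.76 on the log2 scale (SE 0.11, edgeR adjusted p = 0.00021). PTPRN2, a granule membrane protein gene, also fell (log2 fold change -0.75, edgeR adjusted p = 0.00040). At the threshold of 0.001, 8.14% of all genes tested fell and 6.37% rose. Of 29 genes for granule exocytosis 28 were tested, of which 7 fell and 2 rose, and their median was -0.044. Those with the smallest p-values all fell: SYT1, a calcium sensor of release (106 ± 1.70 CPM to 28.9 ± 2.77 CPM, log2 fold change -1.88), RAB3C, a small GTPase of secretory vesicles (-1.17), and RAB27B, a GTPase of granule docking (-1.79), with edgeR adjusted p-values from 1.5e-07 to 1.1e-05. The 2 that rose were SYT11 (log2 fold change 0.80) and ATP6V0A1, a subunit of the proton pump (0.71).

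Transcription factors of the noradrenergic lineage mostly fell. Of 13 such genes 12 were tested, 9 fell and none rose, with a median log2 fold change of -0.81. Over the alternatives 6 to 11 fell. Of all genes tested, 8.14% fell and 6.37% rose at the threshold of 0.001. At an unadjusted p under 0.05, 11 of the 12 were lower and 0 higher. At that cut at least 23.7% of all genes tested were lower and 22.6% higher. INSM1 was not tested, with 0 or 1 fragment per library. GATA2, a zinc finger factor of sympathetic neurons, was at 689 and 756 CPM with DMSO and at 390 and 380 CPM with SGSS05-NS (log2 fold change -0.91, SE 0.096, edgeR adjusted p = 1.8e-05). PHOX2A (log2 fold change -0.65), HAND2 (-0.81) and GATA3 (-0.84) fell as well. The call of HAND2 was lost with scaling by library size only (adjusted p = 0.0016). That of GATA3, whose DMSO libraries differed (169 and 245 CPM), was also lost there, with limma voom, with DESeq2 (adjusted p = 0.020), with at least 10 counts in every library and without SGSS05-NS replicate 2. Whether these falls bear on DDC, SLC6A2 and CHGA was not tested.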

How the data were processed

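RNA of SY5Y cells 12 h after DMSO or SGSS05-NS was sequenced as 2 libraries per condition, grouped by their labels. The authors used Trimmomatic 0.30 for trimming and STAR 2.4.2a for alignment to hg19, and their deposited counts are raw whole fragments per gene, given once unstranded and once per strand. The libraries were stranded, so the reverse-strand column was used here. The other strand's column held between 4.64% and 5.05% of the fragments on genes. Between 12.3% and 16.1% of fragments lay outside exons of the counted strand and between 2.32% and 2.58% were ambiguous. Neither these nor multiply mapped ones entered the library sizes.

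Symbols and positions came from GENCODE 44 on GRCh37 (55538 of 57820 identifiers). The test was the quasi-likelihood F test of edgeR 4.0.16 (R 4.3.3) after filterByExpr and TMM, without covariates, with Benjamini-Hochberg adjustment over 16468 genes, threshold 0.001. CPM are TMM-normalized. Standard errors are the fold change divided by the square root of F. Merged exon lengths may differ from the annotation used for counting. Intervals at the detection limit cover counting error only. With 2 libraries against 2, the spread is largely estimated from other genes. The scripts were tested on simulated counts. At the threshold of 0.001 they recovered 30% of genes changed 1.5-fold, 50% of those changed 2-fold and 92% of those changed 4-fold. A gene that was not called may thus have changed.

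The members and lists were chosen with earlier results of these data known. Named genes were all 9 members, the 3 smallest p-values of each other list and a few fixed names (GCH1, MAOB, PHOX2A, HAND2, GATA3, SCG2, VGF, ADRA2A, CHAT, SLC18A3, KMT5A). Some named genes are not reported here. SCG3, SCG5, PTPRN2, FOSL1, FOSL2, SYT11, ATP6V0A1, PCSK1, INSM1, PDGFRA and other markers at 0 were named after their values were seen. Alternatives were the likelihood ratio test, voom (limma 3.58.1), DESeq2 1.42.0, other scalings, filters and thresholds, unstranded counts, the replicate number as a block, and each library left out.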

Additional observations from a re-analysis of the deposited data

Results flagged for a closer look

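The column for the opposite strand, which the comparisons do not use, held a signal at SLC18A2 that was higher with SGSS05-NS than with DMSO: 12.2 and 16.4 CPM in the DMSO libraries and 18.2 and 17.8 CPM in the SGSS05-NS libraries, with means of 14.3 ± 2.91 and 18.0 ± 0.305 CPM (SD, n = 2). SLC18A2 itself was at 1.04 and 1.39 CPM. PDZD8, which overlaps its end on the other strand, had 2195 and 2208 fragments with DMSO and 2170 and 2286 with SGSS05-NS (log2 fold change 0.10, edgeR adjusted p = 0.40). How many of the opposite-strand fragments belong to PDZD8 was not tested.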

How the results depend on the processing

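CHGA, DDC and SLC6A2 kept their direction and their call, and none of the 8 genes was called higher, in all 13 alternatives at the threshold of 0.001. MAOA was called with the likelihood ratio test (log2 fold change -0.52). SLC18A1 turned to 0.055 without DMSO replicate 1 and was at -0.24 without DMSO replicate 2. With a threshold of 0.05, 5 of the 8 were lower. Of all genes, 2390 were called (1049 higher, 1341 lower). The likelihood ratio test gave 4289 (2022 and 2267), no filter on low counts 4604 (2034 and 2570), a threshold of 0.05 gave 7631 (3728 and 3903) and one of 0.01 gave 4937 (2321 and 2616). The replicate number as a block gave 3766 (1759 higher, 2007 lower). Libraries that share a number did not deviate together beyond a correlation of 0.053, and with 2 numbers this is no pairing. The block changed no call of the 8 genes. The lower call among the cofactor genes numbered 0 to 2 over the alternatives. List medians moved under single settings. Those of other transmitter types were 2.35 with no filter, 0.39 with at least 10 counts in every library and 0.78 with unstranded counts, of receptors 1.63 and 0.45, and of neuropeptides 0.96 and -0.30 under the former and the latter filter. With single libraries left out, the medians ranged from -0.21 to -0.10 for the cofactor, from -0.20 to -0.090 for other catecholamine metabolism, from -0.012 to 0.090 for the other granins and granule enzymes, whose sign turned without DMSO replicate 1, from 0.20 to 0.64 for other transmitter types and from 0.60 to 1.16 for receptors. When a library was left out, the lone library of its condition was assumed to vary like the others. TH had too few counts for a value. Depth limits SLC18A2, TH and most receptors.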

Other observations

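Receptors for the transmitter were mostly silent. Of 14 genes for adrenergic and dopamine receptors 13 were matched to an identifier in the count files (all but ADRA2B) and 5 were tested. ADRA2C, an inhibitory receptor gene, was at 17.2 and 16.2 CPM with DMSO and at 22.6 and 22.5 CPM with SGSS05-NS (log2 fold change 0.43, edgeR adjusted p = 0.0097, not called). ADRA2A was at 0.877 and 1.24 CPM and at 1.80 and 2.17 CPM (log2 fold change 0.91, edgeR adjusted p = 0.023, not called). The median of the 5 was 0.91, which rests in part on a gene that passed the filter on low counts only through the SGSS05-NS libraries.

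Of 17 genes of other transmitter types 4 were tested, of which 1 rose, where 6.37% of all genes tested were called higher. ACHE, which encodes acetylcholinesterase, had 11 and 15 fragments with DMSO and 126 and 135 with SGSS05-NS, or 3.40 on the log2 scale (SE 0.27, edgeR adjusted p = 2.4e-06). The vesicular acetylcholine transporter SLC18A3 was at 16.4 and 12.9 CPM with DMSO and 21.3 and 16.8 CPM with SGSS05-NS (log2 fold change 0.38, edgeR adjusted p = 0.066), while CHAT, the enzyme that makes acetylcholine, had between 2 and 9 fragments per library. TPH1, of serotonin synthesis, had a log2 fold change of 0.89 (edgeR adjusted p = 0.080, not called). Their median was 0.63. Of 12 neuropeptide genes 3 were tested and none was called by edgeR (the likelihood ratio test called 1 and DESeq2 and limma voom 0). At an unadjusted p under 0.05, 2 were lower, where at least 23.7% of all genes tested were lower. NPY, a co-transmitter of noradrenaline, was at 42.2 and 35.9 CPM and at 29.7 and 21.0 CPM (log2 fold change -0.62, adjusted p = 0.0054), VIP had a log2 fold change of -1.21 (adjusted p = 0.048) and GAL one of -0.0015 (adjusted p = 0.99), all from edgeR.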
